A study of Mus musculus with 4 samples.

Results

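The 39 genes described here encode the core machinery of macroautophagy, from the kinase complex that starts an autophagosome to the lysosomal membrane proteins at its end. They were taken as a list of names, and no measured value entered the rule. The list was chosen with earlier results of these data known, so its counts are descriptions. All 39 had at least 1 probe whose RefSeq accession maps to the gene, with 67 probes among the 56605 on the array. Of these probes 66 were bright enough to be kept, which covered all 39 genes among the 16524 genes with a kept probe. All 39 genes had a main probe well above background on all 4 arrays, so none entered through 1 group alone. Total RNA was prepared from cerebellum at postnatal day 28 of C57BL/6 mice kept free of specific pathogens. The 2 control samples came from animals with floxed Derl2 alleles (Derlin-2flox/flox). The 2 knockout (KO) samples came from crosses of Derl2flox/flox mice with mice carrying Cre recombinase under the nestin promoter. This promoter acts in neural precursors, so cells of other lineages may keep an intact gene. No group with Cre and intact Derl2 alleles was measured, so Cre itself and loss of Derl2 cannot be told apart. Derlin-2 sits in the membrane of the endoplasmic reticulum (ER) and helps to export misfolded proteins to the proteasome. The labels do not say whether each sample is a single animal, so the p-values measure the spread between these samples.

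Macroautophagy encloses cytoplasm in a double membrane and delivers it to the lysosome. The ULK kinase complex starts the process, a phosphatidylinositol 3-kinase complex marks the membrane with phosphatidylinositol 3-phosphate (PI3P), and PI3P-binding proteins, a lipid scramblase and lipid transfer proteins make the membrane grow. A pair of ubiquitin-like conjugation systems then attach LC3 and GABARAP proteins, the ATG8 family, to the membrane, where cargo receptors bind them. Neurons depend on this pathway, and Purkinje cells of the cerebellum degenerate when Atg5 or Atg7 is removed from the nervous system. Autophagy is also a second route for disposal of ER proteins beside the proteasome.

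Each value below is the log2 processed signal of a probe minus the upper quartile (75th percentile) of its array, so it compares arrays for 1 probe and not genes with each other. A gene was read on its brightest kept probe. KO was set against control with limma over all 37516 kept probes, and 0 probes passed a Benjamini-Hochberg adjusted p of 0.05 (0% of those tested), while 5265 had an unadjusted p under 0.05. With 2 arrays per group, the number of arrays limits the precision, and an exact permutation of 2 against 2 could give no two-sided p under 0.333. Derl2 read 2.13 and 2.20 in control against 0.81 and 0.70 in KO. Its KO signal was 37.6% of control (log2 difference −1.41, SE 0.11; limma adjusted p 0.273), and both KO arrays lay far below both controls, as labelled. All 9 Purkinje cell markers and all 9 granule cell markers in the lists were well above background on all 4 arrays. Control replicate 2 stood apart in choroid plexus markers, whose summed signal relative to the upper quartile was 141.1 on that array and between 7.53 and 7.97 on the others. Control replicate 1 had a patch of raised local background that held 1350 spots, 2 of them of kept autophagy probes. All arrays lay on 1 slide, each group in neighbouring positions, so position and group cannot be told apart.

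The core autophagy genes differed little between KO and control cerebellum. Of the 39 genes, 0 passed the adjusted threshold, and the smallest limma adjusted p among them was 0.325. At an unadjusted p under 0.05 there was 1 gene higher in KO, Atg9a, and 0 lower, against 3.16% and 5.65% of all genes (8.81% in either direction). By sign, 14 genes were higher and 25 lower in KO, a share of 35.9% higher against 36.1% for all genes. The median difference was −0.06 for the list and −0.06 for all genes. Both KO arrays lay above both control arrays for 9 of the 39 genes and below both for 11, where the background over all genes was 13.8% and 32.1% (45.9% in either direction). A log2 difference over 0.5 in size, and also 2-fold or more, was found for 1 gene, Atg13, against 6.78% and 1.39% of all genes. Under spike-in scaling, which moves every value up by 0.07, 21 of the 39 genes were higher, beside 51.7% of all genes.

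The size of these differences was compared with the replicate spread. The median absolute difference over the 39 genes was 0.0758 between the control arrays and 0.136 between the KO arrays, and it was between 0.103 and 0.145 when a KO array was paired with a control array. A KO and a control array thus differed in these genes about as much as the KO arrays differed from each other, and more than the control arrays did. For 23 of the 39 genes the group difference was smaller than the difference between the KO arrays, against 54% of all genes. It was smaller than the difference between the control arrays for 15 of the 39, against 46.4% of all genes. The 95% interval of the difference lay wholly inside a 1.5-fold change in either direction for 35 of the 39 genes, against 65.1% of all genes, and inside a 2-fold change for 38, against 89.9%. The genes whose interval reached further were Atg13, Atg9a, Lamp2 and Tfeb. When all genes were split by signal into 4 classes of equal size, the 39 genes fell 0, 8, 14 and 17 from the dimmest to the brightest class; the part of signal level in these intervals was not tested.

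**Figure D1:**
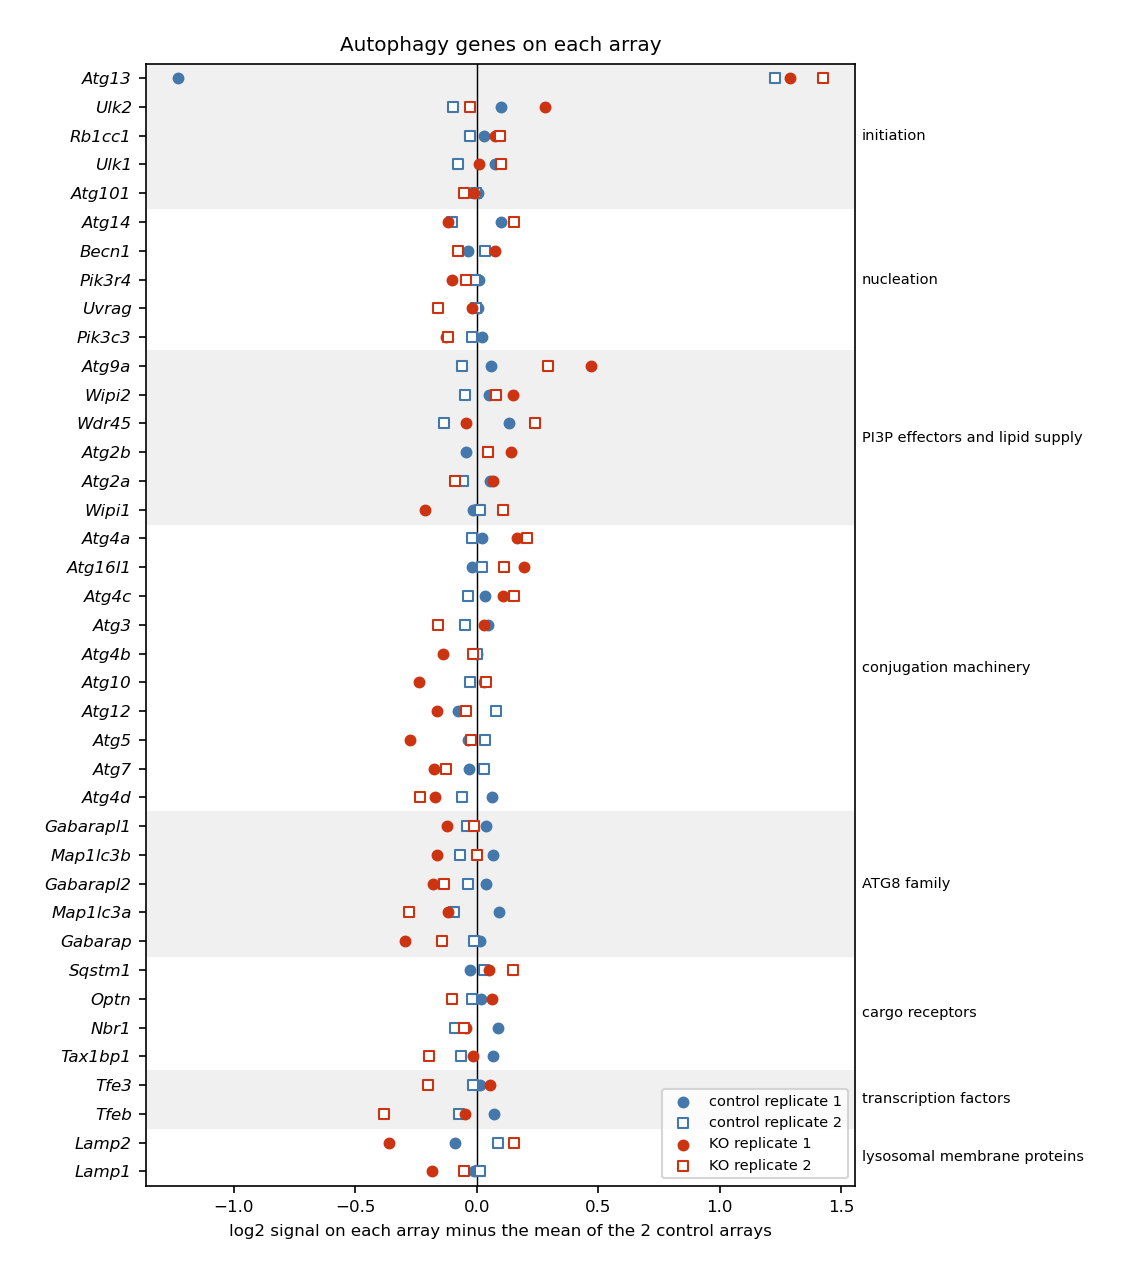
Log2 signal of each of the 39 autophagy genes on each array, minus the mean of the 2 control arrays (x axis), with genes grouped by step (y axis); filled circles are replicate 1 and open squares replicate 2, blue for control and red for KO. Apart from Atg13, whose control replicate 1 lies far to the left, the points of both groups stay close together, and Atg9a has both KO arrays to the right.

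**Figure D2:**
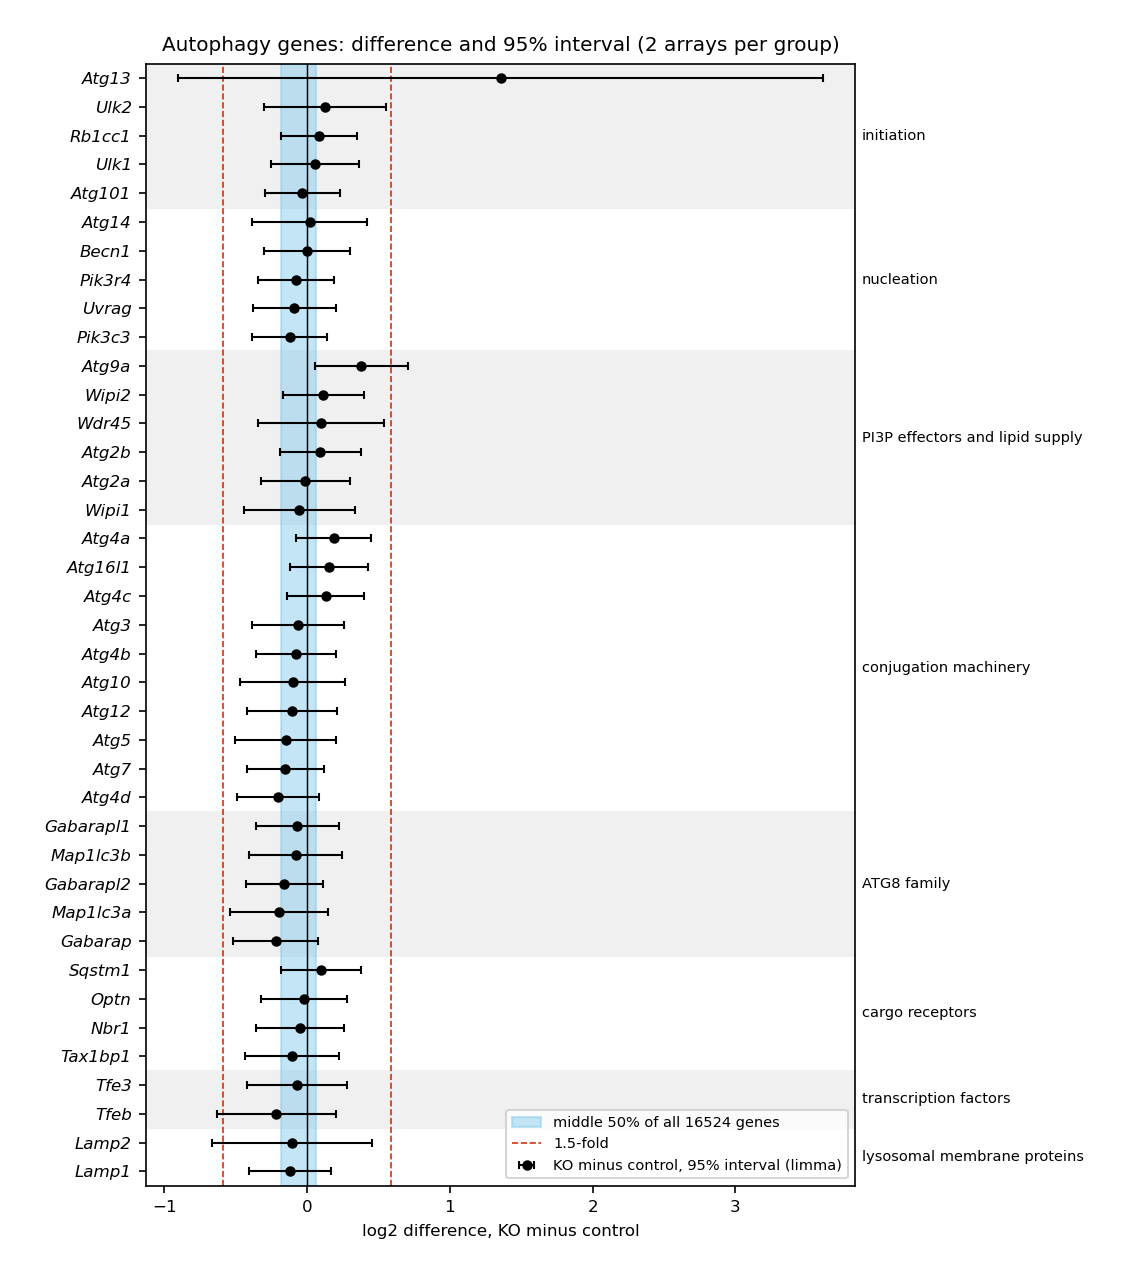
Log2 difference of KO minus control for each gene (points) with its 95% interval from limma (bars, 2 arrays per group). The blue band is the middle 50% of all 16524 genes and the dashed lines mark 1.5-fold; the intervals of 35 of 39 genes lie between the dashed lines.

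The initiation complex joins the kinases ULK1 and ULK2 with the scaffold FIP200, encoded by Rb1cc1, and the subunits ATG13 and ATG101. Of its 5 genes, 4 were higher and 1 was lower in KO, with a median difference of 0.09, and 0 of 5 had an unadjusted p under 0.05. The largest difference of the whole list belonged to Atg13 and came from a single array. Atg13 read 1.24 and 3.70 in control and 3.76 and 3.90 in KO. Control replicate 1 stood alone, and its only spot for Atg13 lay on the patch, with a local background of 104 on that array and 20 to 22 on the others. The fitted difference was 1.36 (SE 0.84; limma adjusted p 0.51), a 2.56-fold ratio. Against control replicate 2 alone the KO mean was higher by 0.13. Without control replicate 2, so that the patch array was the only control, the Atg13 difference was 2.58 with a limma adjusted p of 0.0389. For Ulk1 the values were 4.90 and 4.75 in control and 4.83 and 4.92 in KO, which overlap (difference 0.06, 95% interval −0.25 to 0.36). Ulk2 also overlapped, with a difference of 0.13 on each of its 2 probes (0.13 and 0.13). Atg101 had the lowest value of the complex, a difference of −0.03, from 2.36 and 2.36 in control to 2.35 and 2.31 in KO; under quantile normalization and spike-in scaling it was above 0.

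Nucleation depends on the lipid kinase VPS34, encoded by Pik3c3, its regulatory subunit VPS15 (Pik3r4), Beclin 1 (Becn1), and either ATG14 or UVRAG. Of these 5 genes 2 had a difference above 0 and 3 below, the median was −0.07, and 0 of 5 had an unadjusted p under 0.05. Becn1 showed the same mean in both groups. Its values were 0.14 and 0.21 in control and 0.25 and 0.10 in KO, a difference of 8.0e-05 with a 95% interval of −0.30 to 0.30. Pik3c3 had the largest negative difference, −0.12 (SE 0.10), from −0.07 and −0.12 in control to −0.22 and −0.21 in KO. Both KO arrays lay below both controls for Pik3c3, as they did for Pik3r4 (−0.07) and Uvrag (−0.09), where the background was 32.1%. Atg14, which directs the kinase to autophagosome formation, was the highest of the step with a difference of 0.02 and overlapping groups: 1.10 and 0.90 in control and 0.88 and 1.15 in KO.

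The proteins that act on PI3P and supply lipid include the PI3P binders WIPI1, WIPI2 and WIPI4 (Wdr45), the lipid transfer proteins ATG2A and ATG2B, and the scramblase ATG9A. Of these 6 genes 4 were higher in KO and 2 lower, the median was 0.10, and 3 of 6 had both KO arrays above both controls, where the background was 13.8%. Atg9a was the 1 gene of the whole list with an unadjusted p under 0.05. Atg9a read 0.45 and 0.33 in control and 0.86 and 0.68 in KO, so the groups did not overlap. The means were 0.39 ± 0.083 (SD, n = 2) and 0.77 ± 0.125 (SD, n = 2), a difference of 0.38 (SE 0.12) or 1.30-fold, with a limma unadjusted p of 0.0304 and an adjusted p of 0.325. Its adjusted p ran from 0.22 to 0.677 over the alternatives, and its unadjusted p was over 0.05 without control replicate 1 (0.0684), without control replicate 2 (0.146), without KO replicate 1 (0.108) and with no filter on dim probes (0.0554), by the same limma fit. Wipi2, which recruits the conjugation machinery, was 0.71 and 0.61 in control and 0.81 and 0.74 in KO (difference 0.11, SE 0.10). Wipi1 was the lowest of the step at −0.05 and its KO arrays lay on either side of the controls, at 2.65 and 2.97 against 2.85 and 2.88. The lipid transfer genes lay near 0, with Atg2b at 0.09 and both KO arrays above both controls, and Atg2a at −0.01 with overlapping groups. Wdr45 (difference 0.10) was highest on KO replicate 2 (2.73) and lowest on control replicate 2 (2.36), with overlapping groups.

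The conjugation machinery had genes on both sides of 0. It comprises the E1-like enzyme ATG7, the E2-like enzymes ATG3 and ATG10, the ATG12-ATG5-ATG16L1 complex that serves as the E3, and the ATG4 proteases that trim and release ATG8 proteins. Of its 10 genes 3 were higher and 7 lower, with a median of −0.09 and 0 of 10 at an unadjusted p under 0.05. The ATG4 proteases lay on both sides of 0. Atg4a was −0.90 and −0.94 in control and −0.75 and −0.71 in KO (difference 0.19, SE 0.10), and Atg4c was higher by 0.13. Atg4d was 3.78 and 3.65 in control and 3.54 and 3.48 in KO (difference −0.20, SE 0.11), and Atg4b had −0.08. In each of these 4 protease genes the KO arrays lay on 1 side of both controls, where the background in either direction was 45.9%. No difference between the proteases was tested. Atg7 was 1.74 and 1.80 in control and 1.59 and 1.64 in KO, a difference of −0.15 (SE 0.10; limma adjusted p 0.533). Its second probe, for another RefSeq transcript, gave −0.14, also with both KO arrays below both controls. Within the E3 complex, Atg16l1 was higher by 0.15, and Atg5 (−0.15) and Atg12 (−0.10) were lower with overlapping groups. Atg3 (−0.06) and Atg10 (−0.10) overlapped too.

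All 5 ATG8 family genes had a lower mean in KO, and none passed a test. LC3 and GABARAP proteins are the membrane-bound tags to which cargo receptors attach. Gabarap was 4.95 and 4.93 in control and 4.64 and 4.80 in KO, a difference of −0.22 (SE 0.11; limma adjusted p 0.443). The KO signal of Gabarap was 85.9% of control. Gabarapl2 gave −0.16 on both of its probes, and on each probe both KO arrays lay below both controls. Map1lc3a was 3.34 and 3.16 in control and 3.13 and 2.97 in KO (difference −0.20, SE 0.13). For Map1lc3b (−0.08) and Gabarapl1 (−0.07) the groups overlapped; Gabarapl1 was slightly above 0 under quantile normalization and spike-in scaling. The family median was −0.16, beside −0.06 for all genes, and 3 of 5 genes had both KO arrays below both controls, where the background was 32.1%. Under quantile normalization the median was −0.07 and under spike-in scaling −0.09. All 5 were lower in 14 of 17 settings, some of which, named below, leave each difference as it was.

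The cargo receptors p62 (Sqstm1), NBR1, optineurin (Optn) and TAX1BP1 bind ubiquitin and ATG8 proteins at once. Their 4 genes had a median of −0.03, with 1 higher and 3 lower and 0 of 4 at an unadjusted p under 0.05. Sqstm1, which is itself consumed by autophagy as a protein and induced under oxidative and ER stress, was 5.08 and 5.13 in control and 5.15 and 5.25 in KO. The KO arrays were both higher, by 0.10 in the mean (95% interval −0.18 to 0.38), while the second Sqstm1 probe gave −0.05. Tax1bp1 was lowest at −0.11, from 2.33 and 2.20 to 2.25 and 2.07, and its 3 probes ran from −0.11 to 0.04. Optn (−0.02) and Nbr1 (−0.05) also overlapped, and a dimmer Nbr1 probe gave 0.20.

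TFEB and TFE3 are transcription factors of lysosomal and autophagy genes, and LAMP1 and LAMP2 are the major glycoproteins of the lysosomal membrane. Both factors and both LAMP genes had a mean difference below 0 on the main probe. Tfeb was 0.30 and 0.16 in control and 0.18 and −0.15 in KO, which overlap (difference −0.21, SE 0.16). Its other 3 kept probes gave −0.26, −0.32 and −0.43, each with both KO arrays below both controls. The probes at −0.26 and −0.43 are for the same RefSeq transcript. Those at −0.32 and −0.43 were dim, with readings between −4.17 and −3.51. All 4 Tfeb probes were below 0 under each scaling and background correction run, with the lowest probe at −0.10 under the one that moved it most. Tfe3 was lower only on KO replicate 2, at 2.88 against 3.07 to 3.14 on the other arrays, and its second probe was not well above background on any array. Lamp1 was 6.50 and 6.52 in control and 6.32 and 6.46 in KO (difference −0.12, SE 0.11). The other Lamp1 probe was 4.82 and 4.79 in control and 4.49 and 4.50 in KO, a difference of −0.31 with a limma unadjusted p of 0.0291. Lamp2 separated by probe and by KO array. On the main probe KO replicate 1 was the lowest array at 2.28 and KO replicate 2 the highest at 2.79, with controls at 2.55 and 2.73. On the probe for the transcript NM_001017959 both KO arrays were low, at 0.02 and 0.08 against 0.43 and 0.53, a difference of −0.43 with a limma unadjusted p of 0.0125.

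Over all 66 kept probes of the list, 23 were higher and 43 lower in KO, and 5 had an unadjusted p under 0.05, against 14% of all probes. These were the main Atg9a probe and 4 further probes, 1 each of Lamp1, Lamp2, Tfeb and Rb1cc1. Probes of a gene share its RNA and are not replicates. Of the 19 genes with more than 1 kept probe, 6 had probes on both sides of 0. Rb1cc1 had 6 kept probes for the same transcript, 5 of them above 0, from 0.06 to 0.38, and 1 at −0.20. Its probe with the largest difference lay on the patch of control replicate 1 and read 0.64 there and 0.70 on the other control, against 1.03 and 1.08 in KO.

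**Figure D3:**
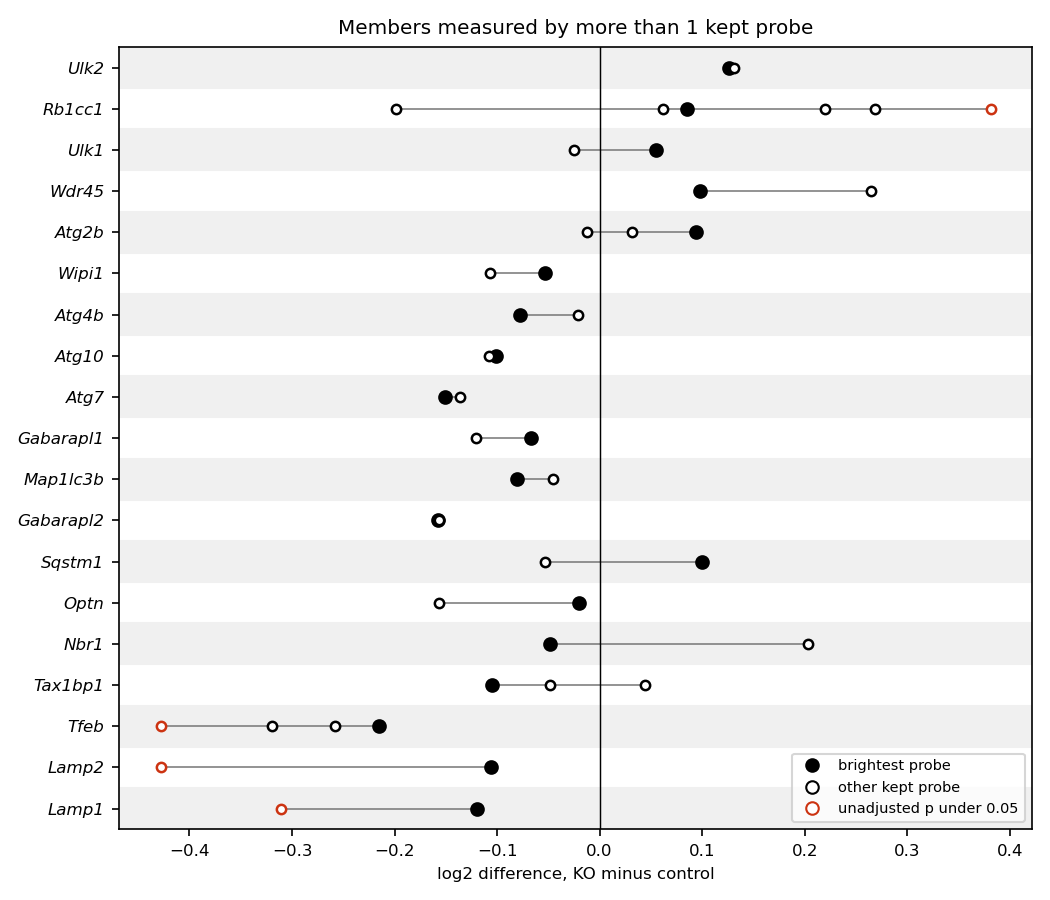
Log2 difference of KO minus control for each kept probe (x axis) of the 19 genes with more than 1 (y axis); black points are the brightest probe, open points the others, and red outlines an unadjusted limma p under 0.05. The 4 Tfeb probes and both probes of Lamp1 and Lamp2 lie below 0, and the 6 Rb1cc1 probes spread from −0.20 to 0.38.

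The steps were then set side by side. The median difference was 0.09 for initiation and 0.10 for the PI3P effectors and lipid supply, and −0.07 for nucleation, −0.09 for conjugation, −0.16 for the ATG8 family and −0.03 for the cargo receptors. The median of all genes was −0.06, and 0.0077 under spike-in scaling. The medians of initiation and of the PI3P effectors were above 0 in all 17 settings, and those of nucleation, conjugation and the ATG8 family below 0. Not all settings could change a sign. Trended robust variances and the replicate block leave each difference as it was. For these genes, so do requiring signal well above background on all arrays and applying no filter on dim probes. Differences between steps were not tested.

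Among the other genes of the pathway, 73 of 75 listed had a kept probe, 22 higher and 51 lower in KO, and the unadjusted threshold was passed by 0 higher and 3 lower. A list with nearly all genes on 1 side was that of lysosomal enzymes, lysosomal membrane proteins and subunits of the V-ATPase, the pump that acidifies the lysosome. Of its 20 genes 18 were lower in KO and 2 higher, with a median of −0.15 beside −0.06 for all genes. Both KO arrays were below both controls for 14 of the 20, where the background was 32.1%, and 2 of 20 had an unadjusted p under 0.05 where the background was 5.65%. Atp6ap1, an accessory subunit of the V-ATPase, was 2.79 and 2.81 in control and 2.47 and 2.50 in KO. Its difference was −0.32 (SE 0.10; limma adjusted p 0.313). Ctsd, the protease cathepsin D, was 4.05 and 4.09 in control and 3.75 and 3.79 in KO (difference −0.30, SE 0.10; limma adjusted p 0.328). Between 16 and 19 of the 20 genes were lower over the settings run, and the list's median was −0.10 under quantile normalization and −0.08 under spike-in scaling. The medians of the other lists were −0.05 for 12 accessory autophagy regulators, −0.03 for 19 genes of mTORC1 and AMPK control, 0.0053 for 13 genes of autophagosome-lysosome fusion and −0.05 for 9 mitophagy genes. In the mitophagy list 8 of 9 genes were lower, where 36.1% of all genes were higher. Both KO arrays were below both controls for 3 of the 9, near the background of 32.1%. The remaining gene at an unadjusted p under 0.05 was Atg9b, the paralogue of Atg9a. Atg9b was lower by a difference of −0.52 (SE 0.17, limma adjusted p 0.327), at −3.47 and −3.87 in control and −4.20 and −4.18 in KO. That probe was well above background on all arrays but lay in the dimmest signal class. The second Atg9b probe was not well above background on any array.

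**Figure D4:**
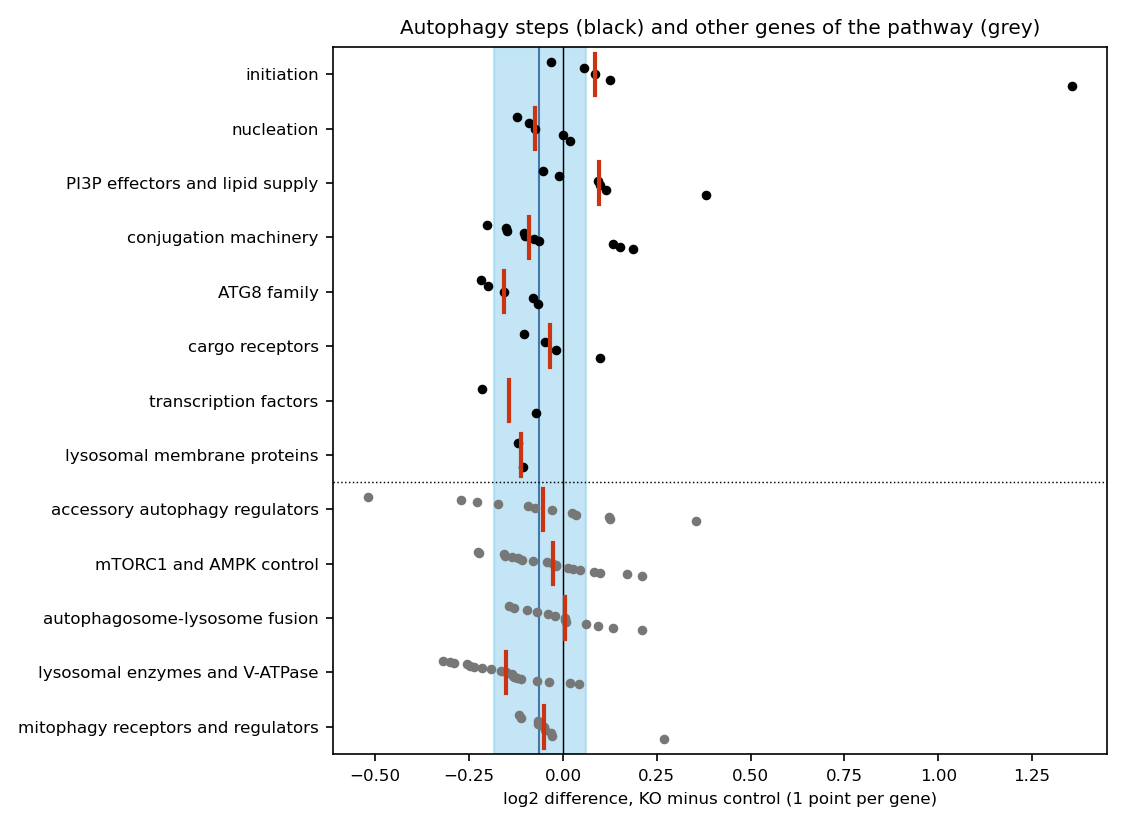
Log2 difference of KO minus control for each gene (points, spread vertically within a row only to keep them apart) by autophagy step (black) and by other list of the pathway (grey); red bars are list medians, the blue line is the median and the blue band the middle 50% of all genes. The 20 lysosomal genes have a median of −0.15, the 5 ATG8 genes −0.16, and the point far to the right is Atg13.

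Cell type marker lists were read beside the lysosomal and ATG8 values. The microglia list had 10 of 10 markers lower in KO, 6 of them with both KO arrays below both controls, where 36.1% of all genes were higher and 32.1% had both KO arrays below. Its markers had a summed signal that ran from 25.75 to 26.51 on control arrays and from 20.38 to 24.36 on KO arrays. The oligodendrocyte list had 9 of 10 lower, with sums of 450.3 to 474.2 in control and 401.1 to 450.8 in KO. On both lists KO replicate 1 was the lowest array: the median against the control mean was −0.38 for microglia and −0.44 for oligodendrocytes on KO replicate 1, and −0.10 and −0.15 on KO replicate 2. For the lysosomal genes these medians were −0.20 and −0.14, and for the ATG8 genes −0.16 and −0.14. The summed signals of the astrocyte list were 170.4 to 171.1 in control and 156.8 to 163.1 in KO. In the Purkinje list they were 773.6 to 790.1 and 734.9 to 742.4, and in the granule cell list 532.9 to 553.3 and 530.5 to 532. The part of these cells in the lysosomal and ATG8 values was not tested, and in bulk RNA fewer cells of a type and less RNA per cell cannot be told apart. Red blood cell sums were highest on control replicate 2, at 584.8 against 395.8 to 413.1 on the other arrays. With each array left out in turn, the ATG8 median ran from −0.20 to −0.11, beside −0.07 to −0.06 for all genes. The part of the red blood cell and choroid plexus signal of control replicate 2 in the ATG8 values was not tested.

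**Figure D5:**
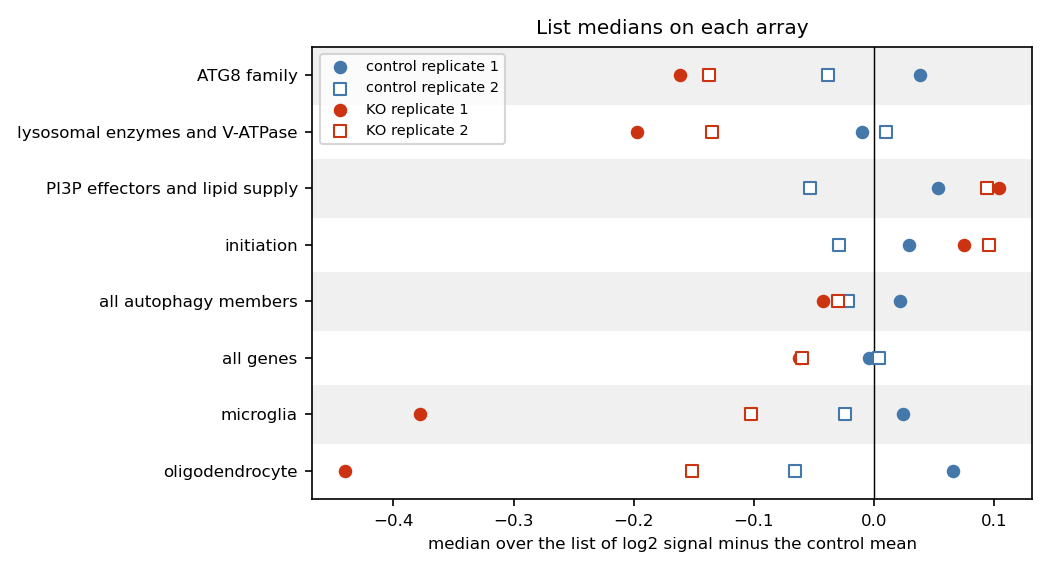
Median over each list of the log2 signal minus the control mean (x axis) on each array, for lists named on the y axis; filled circles are replicate 1 and open squares replicate 2, blue for control and red for KO. For ATG8 and lysosomal genes both KO arrays lie left of both controls, and for microglia and oligodendrocyte markers KO replicate 1 lies furthest left.

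Promoters were read for the motif TCACGTG, the core of the element bound by TFEB and TFE3, since both factors are among the 39 genes. The 250 bases before the gene start were searched on both strands in RefSeq promoter entries of build GRCm38.p6, which held 33 of the 39 genes; Atg12, Atg16l1, Becn1, Map1lc3a, Pik3c3 and Rb1cc1 were not among them. The motif was present in 3 of the 33, Atg3, Atg7 and Lamp1, against 3.58% of 27025 genes, and in 6 of 15 lysosomal genes with an entry. The sequences of these 3 genes, of Ctsd as a lysosomal gene and of Atg9a as the 1 member below the unadjusted threshold follow, on the strand of the gene, with matches in capitals; the motif read on the opposite strand is CACGTGA, and matches on both strands that overlap were counted as 1 place. They lie at chr16:45158579-45158828 (plus strand), chr6:114670846-114671095 (plus), chr8:13158911-13159160 (plus), chr7:142387828-142388077 (minus) and chr1:75192011-75192260 (minus).
Atg3: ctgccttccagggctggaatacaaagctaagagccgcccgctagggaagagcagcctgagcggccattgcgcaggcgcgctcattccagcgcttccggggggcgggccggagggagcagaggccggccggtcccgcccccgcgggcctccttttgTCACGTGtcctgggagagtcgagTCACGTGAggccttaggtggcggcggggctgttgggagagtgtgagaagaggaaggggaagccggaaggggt
Atg7: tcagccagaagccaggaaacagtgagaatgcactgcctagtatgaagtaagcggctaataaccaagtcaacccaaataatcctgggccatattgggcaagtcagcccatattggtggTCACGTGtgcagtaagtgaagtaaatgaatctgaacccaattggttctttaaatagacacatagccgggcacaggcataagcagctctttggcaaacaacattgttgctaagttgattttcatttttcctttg
Lamp1: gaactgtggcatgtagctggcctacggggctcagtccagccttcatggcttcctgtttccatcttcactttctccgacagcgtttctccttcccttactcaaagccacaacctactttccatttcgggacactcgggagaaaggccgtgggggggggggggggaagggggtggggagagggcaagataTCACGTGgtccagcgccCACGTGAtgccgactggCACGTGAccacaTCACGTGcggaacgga
Ctsd: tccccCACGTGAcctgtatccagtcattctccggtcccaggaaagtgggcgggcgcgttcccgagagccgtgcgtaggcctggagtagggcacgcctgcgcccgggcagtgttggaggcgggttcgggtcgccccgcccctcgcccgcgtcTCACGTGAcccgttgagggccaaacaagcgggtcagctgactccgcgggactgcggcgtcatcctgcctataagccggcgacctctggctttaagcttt
Atg9a: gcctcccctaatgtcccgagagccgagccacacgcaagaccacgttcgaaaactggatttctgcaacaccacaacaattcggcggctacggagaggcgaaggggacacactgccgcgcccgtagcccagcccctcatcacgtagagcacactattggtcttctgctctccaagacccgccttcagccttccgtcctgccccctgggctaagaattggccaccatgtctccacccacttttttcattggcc
Lamp1 held the motif at 4 places, Atg3 and Ctsd at 2 each and Atg7 at 1, and Atg9a had none in this window. The differences of these genes on their main probes were −0.12 for Lamp1, −0.06 for Atg3, −0.30 for Ctsd, −0.15 for Atg7 and 0.38 for Atg9a. The other lysosomal genes with the motif lay on both sides of 0, with Gla at 0.042, Mcoln1 at 0.019, Ctsa at −0.07, Atp6v1a at −0.17 and Gaa at −0.24. Gla and Mcoln1 were the 2 genes of that list with a higher mean in KO. A match is a description of the sequence and was not tested for binding.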

How the data were processed

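Per the labels' protocols, 150 ng of RNA per sample was labelled with Cy3 for a single-colour Agilent array. Per the file headers, the deposited intensity values are processed signals made with version 12.1.1.1 of Feature Extraction; the submitters' processing notes give 10.7.1.1. They are background subtracted within the array. The authors' deposited table of log2 values was used as an alternative: differences between its columns equalled those of the values used here within 0.05 for 100% of 35661 probes, which settles scale and direction. Its column medians were 0.00706 and −0.1935 (control) and −0.16 and −0.2224 (KO), and the value on which its probes are centred is not given in the sources used here.

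Log2 processed signals were averaged over the spots of a probe without control spots and outlier spots, and the 75th percentile of each array (9.50 to 9.64) was subtracted. A probe was kept where either group had both of its arrays well above background. Of 35886 probes with a RefSeq accession, 32994 (91.9%) were named through a RefSeq table of GRCm38.p6, of which only promoter coordinates are printed. limma 3.58.1 in R 4.3.3 (lmFit, eBayes, 4.35 degrees of freedom) compared KO with control, with Benjamini-Hochberg adjustment over all kept probes. The fit was tested on simulated data, 2 arrays against 2, with 50 changed probes per size. An adjusted p under 0.05 was reached by 0% of probes changed by a log2 of 0.5 or 1. For changes of 2 and 3 it was 40% and 64%. In this simulation the adjusted threshold thus could hardly be passed by changes of 2-fold or less. Its setting differs from the data. The spread of each simulated probe was set from its own few arrays. By the limma fit, 5.88% of unchanged simulated probes had an unadjusted p under 0.05, against 14% of all probes in the data. The genes and lists were chosen with earlier results of these data known, so their counts are descriptions. All genes of the list are named; values per array are given for those with an unadjusted p under 0.05 and separate groups and for the highest and lowest of each step, and for up to 2 such genes per direction of other lists. The second probes, Ulk1, Becn1, Atg7, Map1lc3a, Wipi2, Wdr45, Lamp2, Tfe3 and the lysosomal genes with the motif were added after their values were seen. Patch spots are those whose local background exceeds the median of the array 1.5-fold, and spots up to 2 rows or columns away. Alternatives were quantile, median, spike-in (5 probes) and authors' scaling, normexp (offset 50, on median spot intensity, since mean spot intensity was not used here), other filters, outlier spots kept, patch spots left out, trended robust variances, the replicate block, mean of probes and each array left out.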

Additional observations from a re-analysis of the deposited data

How the results depend on the processing

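Over 16 alternatives, 590 of 623 values of the 39 genes kept their sign and their side of the adjusted threshold; 32 values of 16 genes near 0 changed sign, and Atg13 passed the threshold when the patch array was the only control. Part of this agreement was fixed in advance. Trended robust variances, the replicate block and the other filters leave each of these differences as it was. In the simulation the adjusted threshold could hardly be passed by small changes. Spike-in scaling turned Atg101 to 0.040, Atg2a to 0.060, Atg3 to 0.0068, Gabarapl1 to 0.0046, Nbr1 to 0.024, Optn to 0.052 and Wipi1 to 0.019. That scaling moves every value by 0.07. Quantile normalization turned Atg101 to 0.020, Atg2a to 0.042, Gabarapl1 to 0.0035 and Wipi1 to 0.00061. Nbr1 was 0.078 as the mean of its probes, Optn 0.0039 under normexp and Becn1 −0.0046 with the median of bright probes. With an array left out, differences ran from −0.24 to 0.037 for Atg10, −0.12 to 0.15 for Atg14, −0.089 to 0.066 for Atg2a, −0.16 to 0.028 for Atg3, −0.077 to 0.077 for Becn1, −0.36 to 0.15 for Lamp2, −0.16 to 0.0013 for Map1lc3b, −0.14 to 0.041 for Nbr1, −0.10 to 0.063 for Optn, −0.20 to 0.055 for Tfe3, −0.021 to 0.13 for Ulk1, −0.030 to 0.28 for Ulk2, −0.045 to 0.24 for Wdr45 and −0.21 to 0.11 for Wipi1; the spread of a group with a lone array was then taken from the other group. Derl2 passed the threshold at −1.41 under trended robust variances. The median of the 39 genes was −0.015 under quantile normalization, 0.0068 under spike-in scaling and −0.078 to −0.028 with an array left out. Step medians moved under spike-in scaling (initiation 0.16, nucleation −0.0031, PI3P effectors 0.17, conjugation −0.018, ATG8 −0.086, receptors 0.038), quantile normalization (ATG8 −0.065, nucleation −0.035) and normexp (nucleation −0.049). With an array left out they ran from 0.027 to 0.13 for initiation, −0.10 to −0.066 for nucleation, 0.014 to 0.11 for PI3P effectors and −0.15 to −0.020 for conjugation. Members at an adjusted p under 0.05 numbered 0 to 1 with an array left out. Members higher at an unadjusted p under 0.05 were 0 with no filter and 0 to 1 with an array left out; members lower were 1 under normexp and 3 under trended robust variances. Non-overlapping members numbered 9 to 15 higher and 13 to 19 lower with an array left out, where fewer arrays must separate, and 4 lower under quantile normalization and 5 lower under spike-in scaling. Pathway genes higher at that threshold were 1 under quantile normalization, spike-in scaling, normexp, trended variances, the replicate block and the mean of probes, and 0 to 1 with an array left out; pathway genes lower were 1 under spike-in scaling, 5 under normexp, 1 with no filter, 10 under trended variances and 0 to 2 with an array left out. The cause of these moves was not tested, except that patch omission leaves no test of Atg13. The labels' replicate numbers are shared by the groups; deviations of same-numbered arrays correlated at 0.143 over probes, with 2 pairs, and with the replicate block 1 member had an unadjusted p under 0.05, as without it.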
